A study of Mus musculus with 8 samples.

Results

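The YTHDF3 peaks that lie in 5′ UTRs were taken as all peaks whose deposited annotation places them in the 5′ UTR of a transcript, 3714 of the 87940 peaks in 4 RIP-seq lists. RNA bound to endogenous YTHDF3 was immunoprecipitated (IP) from wild-type C57BL/6 mouse embryonic fibroblasts (MEFs), primary cells isolated from embryos at 13.5 days post-coitum. The MEFs were grown in normal medium or starved for 2 h in a nutrient-deprived one, with 2 replicates of each condition, and all were otherwise untreated. Each of the 4 IP libraries was compared with an input library of polyA RNA, and peaks were windows in which the IP exceeded the input. Nothing in the labels says whether the replicates came from separate embryos, so the tests measure the spread between these samples, which may be technical.

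m6A is a methyl mark on internal adenosines of mRNA, and YTHDF3 is a cytoplasmic reader protein that binds it and acts on the translation and decay of the bound mRNA. Most m6A lies near stop codons and in 3′ UTRs, in the consensus GGAC or a close relative. The 5′ UTR is the stretch that the small ribosomal subunit scans from the cap to the start codon, where upstream AUGs can capture ribosomes and where m6A has been linked to cap-independent initiation under stress.

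The sequences below show the GGAC nearest to the middle of the 5′ UTR peak for 11 regions that the results turn on, 6 among those with the most IP reads and 5 among those in which the IP/input fold differed most between conditions. They were read from the mm10 genome along RefSeq transcripts, 5′ to 3′ on the transcribed strand, and capitals mark GGAC. A match is a description of the sequence and does not show that the adenosine was methylated or bound. Only regions with a GGAC could be shown. The annotated 5′ UTRs of Cd44, Il1r1, Rps6kc1 and Foxo3, described below, are among those that hold none.
BC005537, chr13:24802227-24802256, plus strand, exon 1, 1141 nt before the start codon: cgggcccggcctgGGACgtgggagaacccg
St3gal2, chr8:110957396-110957425, plus strand, exon 2, 303 nt before the start codon: agagggctgagatGGACtgacctctgcctt
Chpf2, chr5:24587731-24587760, plus strand, exon 1, 294 nt before the start codon: gttaggtttggcaGGACtgcactttctttt
Galnt17, chr5:131307325-131307354, minus strand, exon 1, 741 nt before the start codon: gtgggggcggagaGGACgtcgcgctgggtc
Csf1, chr3:107760156-107760185, minus strand, exon 1, 109 nt before the start codon: tctctgcatcccaGGACagcggcgtggccc
Flrt2, chr12:95692440-95692469, plus strand, exon 1, 546 nt before the start codon: ccactgaacctcaGGACcagactggcagtt
Ebf3, chr7:137314043-137314072, minus strand, exon 1, 146 nt before the start codon: cggcgcctgcccgGGACgggctgaagccgg
Ambra1, chr2:91730275-91730304, plus strand, exon 1, 211 nt before the start codon: tggtcggtcgagcGGACccctcgctttctt
Adcy9, chr16:4420038-4420067, minus strand, exon 1, 810 nt before the start codon: cttagccgcaaggGGACggaacgcggcagg
Pomk, chr8:25989681-25989710, minus strand, exon 2, 202 nt before the start codon: ctgcatggataatGGACtggaacacagaaa
Zbtb14, chr17:69384083-69384112, plus strand, exon 1, 211 nt before the start codon: gctccccacgcgcGGACtgcgccccatgtc

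The 4 lists held 864 and 824 5′ UTR peaks under normal conditions and 893 and 1133 after starvation, for replicates 1 and 2. As a share of the list these were 4.92% (95% Wilson interval 4.61 to 5.25) and 3.71% (3.47 to 3.97) in normal MEFs. The shares were 3.83% (3.59 to 4.09) and 4.55% (4.30 to 4.81) in starved MEFs. The 2 conditions overlapped, at 4.32% ± 0.856 (SD, n = 2) and 4.19% ± 0.505 (SD, n = 2), and the exact permutation p was 1, where 2 against 2 samples cannot go below 0.333. The intervals cover counting error only.

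The label of a peak is set by its midpoint. Placing the midpoints on the same RefSeq transcripts repeats that rule and is not an independent check. Of the 3714 peaks, 3706 matched a transcript, and the midpoint of 3685 lay inside its 5′ UTR. The midpoint lay at a median of 222 nt from the transcription start on the spliced transcript (quartiles 154 and 339), and only 34 midpoints were within the first 100 nt. The annotation software assigns the first 100 bp after a start to its promoter-TSS class before it considers 5′ UTRs, so peaks at the cap are not members. The start codon was a median of 131.5 nt downstream of the midpoint, and 46.8% of the peaks reached across it. Exon 1 held 75.4% to 79.1% of the peaks of a list and exon 2 held 16.1% to 19.6%. On average 55.0% of the bases of a peak were 5′ UTR, 8.99% were coding, 26.6% were intronic and 9.40% lay upstream of the annotated start. For 147 peaks the deposited gene name differed from the gene of the annotated transcript, and the latter was used.

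**Figure D1:**
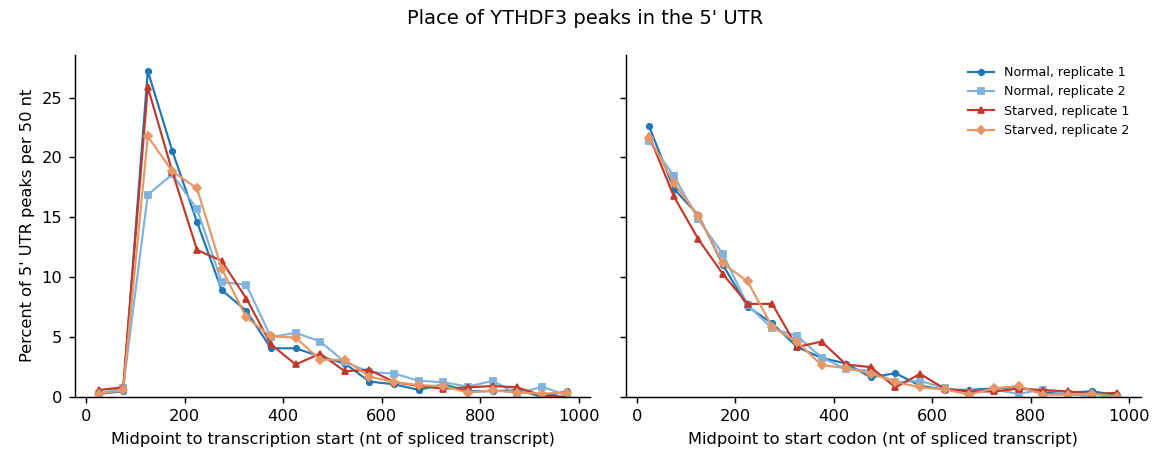
Percent of the 5′ UTR peaks of each list per 50 nt of distance, from the peak midpoint back to the transcription start (left) and on to the start codon (right), for normal (circles, squares) and starved (triangles, diamonds) MEFs. All 4 lists rise steeply past 100 nt from the start, where the promoter-TSS class ends, and are densest within 50 nt of the start codon.

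The genes that carried these peaks had long 5′ UTRs. Taking the longest annotated 5′ UTR of each gene, the median was 388 nt over 1651 genes with a 5′ UTR peak and 441.5 nt over the 520 genes with a 5′ UTR region called in all 4 lists. It was 225 nt over 4714 genes that had peaks of other classes only. A longer 5′ UTR gives more room for a midpoint beyond 100 nt, which the annotation rule requires. GC content was similar, at a median of 65.0% over the 520 genes and 64.7% over the 4714. At least 1 ATG upstream of the start codon was present in 80.6% of the 5′ UTRs of the 1651 genes and in 61.1% of those of the 4714. Per kb the 1651 had 7.23 ATGs and the 4714 had 8.01, so that ATGs were more often present in the longer 5′ UTRs but not denser.

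Compared with other peaks, those in 5′ UTRs had many reads and an ordinary fold. The median IP reads per peak were 156.5, 169, 203 and 219 (normal replicates 1 and 2, starved replicates 1 and 2), against 120 to 176 for coding exon peaks and 88 to 128 for 3′ UTR peaks. Their median length was 460 to 510 bp, against 420 to 470 bp for exon peaks. The median IP/input fold was 3.03, 3.0, 2.89 and 3.24 in the 4 lists. It was 3.11, 3.05, 2.97 and 3.10 over all peaks outside 5′ UTRs, below which the 5′ UTR value fell in 3 lists. A fold of at least 4 was found in 25.9%, 28.6%, 21.2% and 30.3% of the 5′ UTR peaks, against 29.5%, 27.4%, 25.4% and 25.7% of the other peaks, and so lower in 2 lists and higher in 2. A peak with fewer than 3 input reads was given 3, which makes its fold a lower bound, and 6.43% to 13.9% of the 5′ UTR peaks had at most 3.

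**Figure D2:**
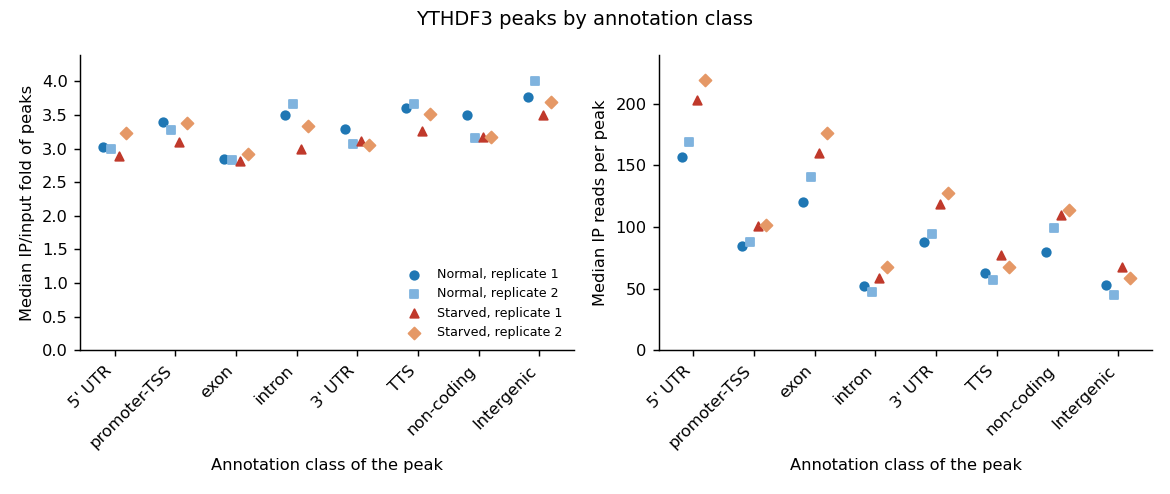
Median IP/input fold (left) and median IP reads per peak (right) for each annotation class, 1 point per list, normal MEFs in blue and starved MEFs in red and orange. 5′ UTR peaks had the most IP reads of the 8 classes in each list, at 156.5 to 219, while their median fold lay just above that of exon peaks.

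Within the 5′ UTR the fold varied with place. Peaks that spanned the start codon had a median fold of 2.80, 2.95, 2.80 and 3.08 in the 4 lists. Peaks that stopped short of it had 3.23, 3.22, 2.99 and 3.47, higher in each list, and were shorter, with medians of 420 to 450 bp against 540 to 610 bp. Peaks in exon 1 had a higher median fold than those in exon 2 in 3 lists (3.09, 3.06 and 2.91 against 2.94, 2.88 and 2.82), and the order was reversed in starved replicate 2 (3.24 and 3.30).

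GGAC was searched on the transcribed strand of the 200 bp around each midpoint. It occurred in 64.8% ± 1.25 (SD over 4 lists) of the 5′ UTR windows and in 57.3% of the windows of the other transcript classes, higher in 4 of 4 lists (exact sign-flip permutation p = 0.125, the smallest that 4 lists allow). By class and list the share was 63.3% to 66.3% in 5′ UTR windows, 59.6% to 64.2% in exon windows and 60.7% to 62.2% in promoter-TSS windows. GC content differed as well, at a mean of 65.0% in 5′ UTR windows and 52.7% in the others. Among windows of 60% to 70% GC the shares were 71.3% of 888 5′ UTR windows, 69.7% of 6554 exon windows and 71.2% of 552 3′ UTR windows. At 70% to 80% GC they were 69.5% of 1330 5′ UTR windows and 74.8% of 1129 exon windows. At 50% to 60% GC they were 58.2% of 5′ UTR, 64.0% of exon and 58.8% of 3′ UTR windows. At 30% to 50% GC they were 51.0%, 51.1% and 42.5% in the same order. At matched GC the share in 5′ UTR windows was thus below that of exon windows in 3 of 4 bins.

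Most genes with a 5′ UTR peak were bound elsewhere too. In each list 86.8% to 88.6% of them had a peak of another class, and the median was 4 or 5 peaks per gene, against 2 for genes with no 5′ UTR peak. Coding exons held the other peak in 71.9% to 78.3% of the genes and the 3′ UTR in 47.6% to 54.4%. Within genes that had both, the log2 ratio of the 5′ UTR fold to the exon fold had medians of 0.09, 0.09, 0.02 and 0.17. Against the 3′ UTR it was 0.05, 0.12, −0.05 and 0.24, with the sign turning in starved replicate 1. Against promoter-TSS peaks of the same gene, present in 60 to 122 genes of a list, it was −0.23, −0.08, −0.13 and −0.17, lower in each list.

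Overlapping peaks of the 4 lists (1 bp or more) were joined to regions, and the reads of a list in a region were summed. Of 40214 regions, 1919 held a 5′ UTR peak in at least 1 list. They recurred more often than regions at large, with 29.9% called in all 4 lists against 16.5%, and 25.4% in 1 list against 48.7%. A region called in more lists had more chances of a 5′ UTR annotation. The remaining 445 and 414 5′ UTR regions were called in 2 and 3 lists. Of the 573 called in all 4, 242 were annotated as 5′ UTR each time. The peaks within the 573 regions were annotated as 5′ UTR in 1651 cases, as exon in 515, promoter-TSS in 250, intron in 163 and 3′ UTR in 59, and 24 lay in the remaining classes. All 573 had a fold of at least 2 in every list, which the calling of peaks requires, and 27 had at least 4. The log2 folds of these regions correlated between the normal replicates with r = 0.45 and between the starved replicates with r = 0.39, across 573 regions that share libraries and are not independent. The 2 lists numbered 1 gave r = 0.48 and the 2 numbered 2 gave r = 0.52.

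Of the 242 regions annotated as 5′ UTR in all 4 lists, the 10 with the most IP reads in their lowest list are described first. At Cd44, the hyaluronan receptor (chr2:102901021-102902040), 16607 and 16922 IP reads were counted under normal conditions and 23727 and 22167 under starvation. The IP/input fold was 2.66 and 2.91 under normal conditions and 2.89 and 3.33 after starvation, ranges that overlap. Its annotated 5′ UTR of 319 nt holds no GGAC. At Fgfr1, a receptor of fibroblast growth factors, the folds were 3.05 and 2.64 under normal conditions and 2.20 and 3.11 under starvation, which overlap. BC005537, whose 5′ UTR is 1724 nt long with 6 GGAC, had folds of 2.79, 2.73, 2.78 and 3.28 in the same order. Glycosylation enzymes were also among them. St3gal2, a sialyltransferase, had folds of 3.19, 2.56, 3.17 and 3.17. Chpf2, a chondroitin polymerizing factor, had 3.47, 2.81, 3.31 and 3.53. Galnt17, of the GalNAc-transferase family, had 3.04, 2.18, 2.91 and 2.96. In each of these glycosylation genes the normal replicates lay further apart than the starved ones, and the groups overlapped. Ywhag, a 14-3-3 protein, had 2.63 and 2.12 in normal and 2.67 and 3.24 in starved MEFs, which do not overlap by a narrow margin. Flrt2, a membrane protein of cell adhesion, had 3.72 and 4.17 against 4.27 and 3.73, which overlap. Smad7, the inhibitor of TGF-β signalling, and Csf1, the macrophage growth factor, complete these 10 regions and are described with the read counts.

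The folds themselves were highest at other genes. Among regions with at least 4 input reads in every list, chosen here after their values were seen, Nol4, Adcy9, Sh3bp4, Snx33 and Rtl5 had the highest fold in their lowest list. Snx33, a sorting nexin of endocytosis (chr9:56925091-56928620), had 4775 to 10930 IP reads and folds of 6.09, 4.58, 5.75 and 5.94. It was annotated as 5′ UTR in 2 lists only, and its reads are summed over all peaks of the region. Sh3bp4 had folds of 4.77 and 4.78 in normal and 6.51 and 9.80 in starved MEFs, on 10 to 23 input reads. Rtl5, a gene derived from a retrotransposon on chromosome X, had 4.86, 4.55, 5.18 and 5.22, and was annotated as 5′ UTR in 1 list only.

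Whether starvation changed the enrichment of 5′ UTRs was asked within each replicate number. The median log2 change of the IP/input fold was −0.11 in replicate 1 and 0.21 in replicate 2 over the 573 regions, and −0.05 and 0.07 over all 6621 regions called in 4 lists. The replicates therefore moved in opposite directions at the median. The fold was higher in starved MEFs in both replicates for 162 regions (28.3%), where the share over all regions was 28.1%. It was lower in both for 17.6%, where the share over all regions was 25.4%. A change of at least 1.8-fold in both replicates was rare. It was upward in 1 region, against 0.227% of all regions, and downward in 3, against 0.332% of all regions. With the peak of highest fold in place of the summed reads of a region it was upward in 3 and downward in 2, so the balance of directions rests on this choice. The 3 downward regions were Ebf3, Ubn2 and Gpr157, and the normal folds of the last 2 rest on 2 or 3 input reads in each list. Ubn2 and Gpr157 are named here after their values were seen.

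Il1r1, the signalling receptor of interleukin-1, was the region up-enriched at least 1.8-fold (chr1:40266521-40267000). Its fold was 2.57 and 2.53 under normal conditions and 6.05 and 5.45 under starvation, without overlap. The IP reads were 70, 76, 113 and 90, while the input reads were 22, 30, 8 and 11, so the difference lay mainly in the input. Ambra1, an activator of autophagy that interacts with Beclin, had folds of 2.49 and 2.66 in normal and 5.17 and 4.57 in starved MEFs at its exon 1 region. The log2 change was 1.06 in replicate 1 and 0.78 in replicate 2, with 58, 50, 27 and 33 input reads. For this region the fitted log2 change was 0.09 in IP reads and −0.82 in input reads, so the difference lay mainly in the input. At a second Ambra1 region in exon 2 the folds were 3.01, 2.91, 3.85 and 2.95, and the log2 changes were 0.36 and 0.02. Rps6kc1, a kinase-like protein, had 2.53 and 2.45 against 4.31 and 6.28. Fam160a2 had 4.49 and 2.78 against 15.7 on 5 input reads and 4.9 on 14. Nol4 had 6.29 and 6.50 against 12.1 and 11.0, on 4 to 7 input reads.

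Ebf3, a transcription factor of the early B-cell factor family (chr7:137313371-137314540), was down-enriched, from folds of 4.84 and 6.09 to 2.42 and 2.81. Its IP reads were 36, 67, 203 and 156 and its input reads 6, 11, 36 and 37, so that both were higher in starved MEFs and the input more so. Adcy9, an adenylyl cyclase, had folds of 8.37 and 10.1 in normal and 5.23 and 5.73 in starved MEFs. Pomk, a kinase that modifies dystroglycan, had 4.33 and 6.17 against 2.75 and 2.82. Pag1, a membrane adaptor that recruits Csk, had 7.44 and 6.33 against 2.67 and 4.29. Zbtb14, a zinc finger repressor, had 4.46 and 7.46 against 2.80 and 5.02, and is the only one of these 5 whose groups overlap. The input counts of the 5 regions were between 6 and 37 reads, which limits the precision of each fold.

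None of these differences passed a test across regions. In edgeR's quasi-likelihood test of the IP/input ratio, with Benjamini-Hochberg adjustment over 6621 regions, 0 of the 573 rose and 0 fell. The background was 0.0151% of all regions higher, a single region, and 0% lower. At an unadjusted p under 0.05 there were 23 5′ UTR regions (4.01%, against 3.02% of all regions), 13 higher and 10 lower, and DESeq2 called 0. The unadjusted edgeR p was 0.00246 for Rps6kc1, 0.00781 for the exon 1 region of Ambra1 and 0.017 for Il1r1, each with an adjusted p of 1.

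The changes of IP reads and of input reads, taken separately, went the same way. Across the 573 regions the log2 change of IP reads and that of input reads had r = 0.90, against 0.88 across all 6621 regions. The libraries were separate, but both counts of a list were summed over the same called peaks. The length of those peaks differed between lists and moves both counts together, so part of this r is built in. At Cd2bp2 the peaks covered 2510, 200, 3750 and 2600 bp. There the IP reads were 1183, 60, 4566 and 2767, and the input reads 445, 23, 918 and 915. Of the 30 regions whose IP reads were at least 2-fold lower in starved MEFs, 30 had lower input reads, and of the 23 that were at least 2-fold higher, 23 had higher input reads. The same held for 260 of 260 and 303 of 303 regions over all classes, and the calling of peaks requires a fold of at least 2 in every list. The 30 are 5.24% of the 5′ UTR regions, against 3.93% of all regions, and the 23 are 4.01% against 4.58%. In edgeR no region rose or fell in either kind of library, a background of 0% in each direction. At an unadjusted p under 0.05 there were 50 5′ UTR regions in the IP, 23 higher and 27 lower, and 47 in the input, 20 higher and 27 lower. The 50 are 8.73% of the 5′ UTR regions, against 8.44% of all regions, and the 47 are 8.20% against 7.82%. DESeq2, the alternative test, called 15 of the 573 in the IP, with 3 higher (0.936% of all regions) and 12 lower (1.33% of all regions). In the input it called 2 higher (0.891% of all regions) and 10 lower (1.18% of all regions). The members in the lower direction were 2.09% and 1.75% of the 573. These DESeq2 regions are described below as they were chosen after edgeR had called none, and fewer cells of a type and less RNA per cell cannot be told apart here.

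**Figure D3:**
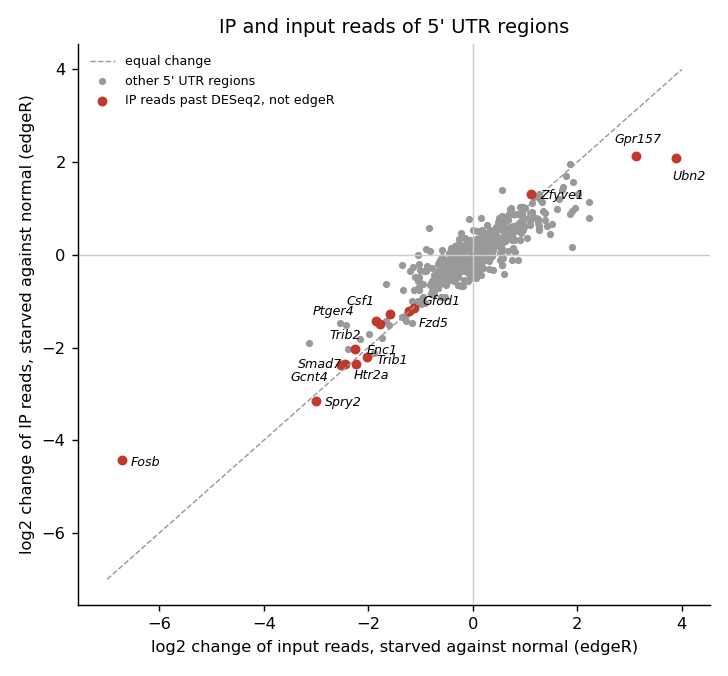
log2 change of input reads (horizontal) and of IP reads (vertical), starved against normal MEFs, as fitted by edgeR for the 573 5′ UTR regions. Points follow the dashed line of equal change (r = 0.90), and the 15 regions in red passed DESeq2 but not edgeR in the IP, where the place of Fosb on the horizontal axis rests on 0 and 2 input reads in starved MEFs.

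Smad7 (chr18:75366881-75369810) had the lowest log2 change of IP reads among the 10 most read regions. Reads were scaled to 1000000 per library over the regions called in all 4 lists (RPM). Smad7 had 1591 and 1602 IP RPM under normal conditions and 268 and 399 under starvation. The input was 1185 and 1014 RPM against 244 and 262. Neither overlapped, and the fold stayed at 3.73 and 4.57 against 3.03 and 4.79, which do overlap. The log2 change of IP reads was −2.36 with an adjusted p of 0.206 by edgeR and 3.24e-08 by DESeq2. Csf1 (chr3:107759791-107760600) had 828 and 646 IP RPM in normal and 344 and 307 in starved MEFs, with an input of 694 and 795 against 282 and 258. Its fold was 3.32 and 2.35 against 3.36 and 3.74, without overlap by a small margin.

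Fosb, an immediate-early member of the AP-1 family (chr7:19309061-19310140), had 234 and 790 IP reads under normal conditions and 45 and 27 under starvation. Its input reads were 69 and 192 against 0 and 2, so that the starved folds of 6.43 and 6.00 are lower bounds. Fosb was the only immediate-early gene with a 5′ UTR region in 4 lists, while 6 of the 24 such genes with a peak had 1 in the 5′ UTR in some list. Sprouty genes, feedback inhibitors of ERK signalling that growth factors induce, were also lower. Spry2 had 282 and 236 IP RPM in normal and 17.7 and 45.1 in starved MEFs, with an input of 303 and 225 against 16.5 and 55.3. Its log2 change of IP reads was −3.15, and −2.66 with the same offset. Spry1 had 176 and 95.4 IP RPM against 15.6 and 51.4. Neither DESeq2 nor edgeR called Spry1, and the 4 lists did not overlap between conditions for either gene. How many of all regions separate in this way was not counted.

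The other 8 regions with lower IP reads in DESeq2 span pseudokinases, receptors and enzymes. Trib1 and Trib2 are pseudokinases that direct proteins to degradation, and their IP RPM were 144 and 176 against 24.8 and 50.0 for Trib1, and 425 and 357 against 105 and 192 for Trib2. Htr2a, a serotonin receptor, had 337 and 384 against 56.6 and 93.9. Enc1, an actin-binding protein, had 239 and 269 against 52.2 and 81.4. Gcnt4, an enzyme of O-glycan branching, had 29.0 and 25.3 against 4.06 and 7.12. With the offset for covered length, the log2 change of Gcnt4 went from −2.38 to −1.06 and that of Trib1 from −2.20 to −1.79. Htr2a went from −2.36 to −2.33 and Enc1 from −2.03 to −1.93, while Trib2 stayed at −1.50. Ptger4, a prostaglandin E2 receptor, Fzd5, a Wnt receptor, and Gfod1 had log2 changes of −1.42, −1.21 and −1.16. With the offset these were −1.60, −1.15 and −1.17. None of these regions overlapped between conditions in IP or in input, and the fold changed by less than 1.8-fold in each replicate in all of them. These regions, like Smad7, Csf1, Fosb and Spry2, were called by DESeq2 on the same IP reads, so their separation in IP adds no support. Input reads were summed over the same peaks, so their separation is not independent of it.

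**Figure D4:**
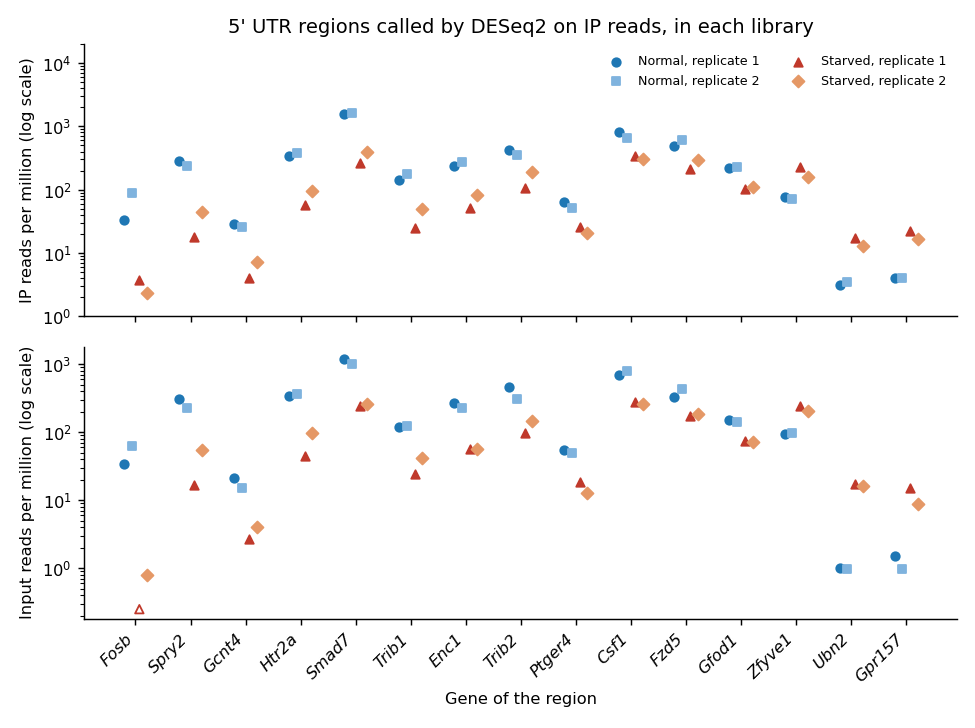
IP RPM (top) and input RPM (bottom), both on log axes, in each library for the 15 5′ UTR regions that DESeq2 called on IP reads. The 12 on the left lie lower in both starved libraries and the 3 on the right higher, and the open triangle marks an input count of 0 for Fosb, drawn at the bottom of the axis.

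The other 3 regions were higher in starved MEFs in the same test. Zfyve1, a protein of endoplasmic reticulum sites where autophagosomes form, had 77.1 and 70.0 IP RPM in normal and 230 and 160 in starved MEFs, with an input of 93.9 and 96.7 against 244 and 206. Its fold was 2.28 and 2.09 against 2.59 and 2.44. Gpr157, a G protein-coupled receptor, had 28 and 36 IP reads in normal and 264 and 192 in starved MEFs, on 3 and 3 against 28 and 22 input reads. Ubn2, a histone chaperone subunit, had 22 and 31 against 209 and 151 IP reads, on 2 and 3 against 32 and 40 input reads. With the offset for covered length, the log2 changes of Zfyve1, Gpr157 and Ubn2 went from 1.31, 2.14 and 2.08 to 1.13, 1.26 and 0.98.

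Genes were also counted by function, and no list had a region past either edgeR test or 1.8-fold in both replicates. Of 6940 genes with a peak on a RefSeq transcript, 1651 (23.8%) had a 5′ UTR peak in at least 1 list. Receptor tyrosine kinases had 15 of 21 (71.4%), among them Egfr, Pdgfra, Pdgfrb, Met, Erbb2, Igf1r and Insr, and 6 of these genes had a region in 4 lists. Igf1r, the receptor of insulin-like growth factor, had folds of 2.73 and 3.65 in normal and 2.09 and 3.62 in starved MEFs. Insr, the insulin receptor, had 2.60 and 3.73 against 2.16 and 4.73, and Pdgfrb, a fibroblast marker, had 2.52 and 2.18 against 2.49 and 2.75. Pik3r1, the regulatory subunit of PI3 kinase, had 4.90 and 2.26 against 3.74 and 3.46. In the list of mTORC1, AMPK and insulin signalling 7 of 32 genes (21.9%) had a 5′ UTR peak.

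Genes of autophagy and lysosome had a 5′ UTR peak in 8 of 32 cases (25%), namely Ambra1, Atg2a, Foxo3, Rubcn, Ulk1, Ulk2, Wipi2 and Zfyve1. Their 6 regions in 4 lists had a median log2 change of 0.22 in the fold and 0.07 in IP reads, where the 573 regions had 0.05 and 0.01. Foxo3, a transcription factor of the starvation response, had 249 and 190 IP RPM in normal and 460 and 372 in starved MEFs. Its folds were 4.29 and 5.32 against 4.30 and 7.35, which overlap and were nearly equal in replicate 1. Its IP reads did not pass either tool. Rubcn, an inhibitor of autophagy, had folds of 3.13 and 2.96 against 3.20 and 3.23. Of m6A genes, 4 of 12 (33.3%) had a 5′ UTR peak, the readers Ythdf1, Ythdf2 and Ythdf3 and the demethylase Alkbh5. Ythdf2 had folds of 2.67 and 2.09 in normal and 2.40 and 2.34 in starved MEFs, and Alkbh5, annotated as 5′ UTR in 1 list, had 3.94 and 4.54 against 2.91 and 5.55. For both the groups overlapped.

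Feedback regulators of ERK had a 5′ UTR peak in 6 of 15 genes (40%), and their 4 regions in all lists had a median log2 change of −1.47 in IP reads, −1.33 in input reads and −0.09 in the fold. Of these DESeq2 called 1, Spry2, and the others were Spry1, Spred2 and Dusp16, with −2.13, −0.31 and −0.81. Genes of translation under stress and of ATF4 had 4 of 13 (30.8%), with Slc7a11, a cystine transporter, at folds of 3.83 and 2.54 against 2.81 and 2.26, and Slc35a4 at 3.19 and 3.31 against 2.66 and 4.60. Translation factors had 2 of 29 (6.90%), Eif4g3 and Eif6, with none in 4 lists. The list made from symbols that start with Rps or Rpl had 2 of 12 (16.7%), but both genes, Rps6ka2 and Rps6kc1, are kinase genes and not ribosomal proteins. Heat shock genes had 1 of 4, Hsph1, and none in 4 lists.

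Chromatin genes had 14 of 53 (26.4%), including the demethylases Kdm2a, Kdm5c and Kdm6b and the methyltransferase Setd1b, whose folds were 5.86 and 5.50 in normal and 3.70 and 5.69 in starved MEFs. Genes of matrix and adhesion had 16 of 56 (28.6%). Itga3, an integrin subunit, had folds of 2.63 and 2.82 against 2.27 and 2.43, lower in both starved libraries, while Itga4 rested on 14 IP reads in normal replicate 2 and 310 to 376 elsewhere. Cell cycle genes had 5 of 14 (35.7%), with Ccnd2, cyclin D2, annotated as 5′ UTR in 1 list, at folds of 2.32 and 2.20 against 2.68 and 2.78. Genes with a Zfp symbol, mostly zinc finger proteins, had 49 of 182 (26.9%) and 25 regions in 4 lists, of which 12 had lower IP reads. Zfp503 had the highest log2 change of the 25, with 204 and 145 against 488 and 393 IP RPM, and did not pass either tool.

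The change in a 5′ UTR was set beside that in the rest of its mRNA. For 410 of the 520 genes with a 5′ UTR region in 4 lists, another region of the gene was also called in 4 lists. The log2 change of IP reads in the 5′ UTR and the median of that in the other regions had r = 0.79 across these genes, and the 2 differed by a median of 0.15. For the log2 change of the IP/input ratio the r was 0.24. The libraries are shared by both regions of a gene, and genes are not independent replicates.

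Some 5′ UTR regions had peaks in both normal lists and neither starved list, or the reverse. Both starved lists and neither normal list held 121 of the 1919 (6.31%), where 4.72% of all 40214 regions did so. Both normal lists and neither starved list held 22 (1.15%), where 1.32% of all regions did so. Among peaks with a fold of at least 4 the 2 counts were 31 and 23. For comparison, 76 5′ UTR regions were called in both lists numbered 1 and in neither of the others, and 128 in both numbered 2. These were 3.96% and 6.67% of the 1919, where 2.78% and 7.41% of all regions did so. A region missing from a list is one that was not called, not one without reads. Tnc, an extracellular matrix glycoprotein (chr4:64046511-64047200), had the most reads among the 121, with 34579 and 22350 IP reads in starved MEFs but folds of 2.15 and 2.33, just above the least fold in the lists. The next were Rasa1, an inhibitor of Ras, at folds of 2.01 and 2.23, and Iqgap1, a scaffold of the cytoskeleton, at 2.08 and 3.15. Among the 22, Mef2d, a transcription factor, had folds of 2.57 and 2.16 in normal MEFs and Hipk2, a nuclear kinase, had 2.25 and 2.57. These 5 regions were picked for their read counts after the values were seen.

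Markers of cell types were looked up in the lists, which hold only windows where the IP exceeded the input. A marker without a peak can still be expressed, so the lookup cannot show that other cells were absent. Of 12 fibroblast markers 9 had a peak in some list and 4 in all, with 61246 to 94685 IP reads in a list, and no peak was called for Col1a1, Vim and Acta2. Markers of blood and neural cells had no peak, 1 of 6 epithelial markers had a peak, with 24 IP reads in 1 list, and Kdr of the 4 endothelial markers had 29 to 89 IP reads. The peaks of a list held 8828814 and 14409462 IP reads in normal and 15731226 and 19284322 in starved MEFs, of which 3.14% to 4.9% lay in 5′ UTR peaks. Total library depth is not known from these lists.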

How the data were processed

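Members and gene lists were chosen with earlier results of these data known. YTHDF3 RIP-seq was measured in MEFs, with 4 IP libraries and 4 inputs. Per the labels and the study's methods, libraries were directional, and Trimmomatic (trimming), TopHat2 2.0.13 (alignment to mm10), diffReps (peaks of each IP over an input) and HOMER (annotation) were used by the authors. The deposited values of normal replicate 2 are counts. Those deposited for the other lists are a signal, each count scaled by a constant of its library, and removal of that constant gave whole reads for 100% of values (tolerance 0.1 reads). They also deposited p-values of each peak and of its best window, and their log2 ratios were not used. The input of each list is not named and was taken to be its own. Whether counting used strand is not given in the sources used here; 10 of the 573 regions overlap a gene on the opposite strand, among those named Zfp646 and Zfp740, where reads of both genes cannot be told apart.

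Folds were IP over input values, with at least 3 input reads. Peaks overlapping by 1 bp were merged into regions. Regions called in 4 lists were tested with edgeR 4.0.16 (quasi-likelihood, TMM, Benjamini-Hochberg) in R 4.3.3, with a term for each culture for the ratio, and with DESeq2 1.42.0 as an alternative. Genome and RefSeq transcripts were GRCm38.p6. Sequences of 11 named regions are printed and those of the other named regions are not reported here. Python 3.11.15, pandas 2.3.3, numpy 2.4.6, scipy 1.17.1, pysam 0.24.0 and matplotlib 3.10.9 were used, and scripts were tested on simulated data.

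Named regions were the 10 annotated as 5′ UTR in 4 lists with the most IP reads in the lowest list, the 5 in each direction whose smaller replicate change was largest (at least 20 IP and 4 input reads in every list), up to 4 genes per list by IP reads, and regions past a test. Alternatives covered peaks kept, input floor, overlap, cutoff, scaling, read filters, tool, normalization, covered length, replicate block, window and leaving out each replicate. Precision is limited by input reads, and intervals cover counting error only.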

Additional observations from a re-analysis of the deposited data

How the results depend on the processing

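Keeping peaks with a fold of at least 4 left 992 5′ UTR peaks, with a mean of the lists' median folds of 5.11, and 31 regions called in starved lists only in place of 121, beside 23 in normal lists only in place of 22. A floor of 10 input reads lowered the mean fold from 3.04 to 2.78. The 4 regions changed 1.8-fold in both replicates became 1 at 50% reciprocal overlap, 1 when annotated as 5′ UTR in all lists, 0 at a fold of at least 4 (25 regions left), 2 with at least 20 IP and 4 input reads, and 16 at 1.5-fold. With 1 replicate alone there were 54 to 55, of which 15 were upward and 39 downward in replicate 1 and 41 upward and 14 downward in replicate 2, and the median log2 change was −0.11 to 0.21, so its sign rests on the replicate. DESeq2 called 15 regions in IP reads and 12 in input reads where edgeR called 0, and an offset for the covered length in edgeR called 7 and 9, all lower in starved MEFs. The share of all regions called with this offset was not counted, so these counts cannot be set against regions at large. Leaving out 1 culture gave 0 to 1 calls in the ratio, with Chsy1 lower without normal replicate 1, and 0 in IP and input reads. The share of windows with GGAC was 43.4% at 100 bp and 86.5% over the whole peak. The causes were not tested. Of 20 alternative values for the regions named by their fold, 16 moved by less than the spread between replicates and 4 moved by more, with no change of direction. For the regions named by DESeq2, no direction changed under the edgeR alternatives, of whose values 113 stayed short of the threshold and 7 passed it, all with the offset for covered length.

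Samples with the same replicate number deviated together, with r = 0.44 across regions in IP reads and 0.40 in input reads, but 2 pairs do not show that the numbers mark a pairing. With the replicate number as a block, 0 5′ UTR regions were called in the ratio, in IP reads and in input reads, with 58, 86 and 72 at an unadjusted p under 0.05. Reads outside called peaks are not in the lists, so library depth is unknown, and a region near the threshold can be missing from a list for want of reads. A permutation of 2 against 2 samples cannot go below p = 0.333.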
